A study of Macaca mulatta with 12 samples.

Results

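The pre-miRNAs mml-mir-192, mml-mir-215, mml-mir-194-1 and mml-mir-194-2 were examined in 12 small RNA profiles of 8 rhesus macaque tissues. They are 4 of the 832 pre-miRNAs whose sequences could be read from the study's list, and they were chosen by name as the miR-192 family and its cluster partners. All profiles came from wild-type, untreated macaques with an age of 36 months. There were 2 profiles each of small intestine, large intestine, kidney and muscle. Lung, liver, occipital lobe and spinal cord were sampled once each, with 1 profile. The tissues were taken from 2 animals, but the labels do not say which animal a profile came from, so that the spread between profiles may be technical. Levels are given in RPTM, which is the number of reads of a miRNA per 10000000 valid reads of a profile. A profile held between 22118095 and 25579064 valid reads, and a count of 3 reads, taken here as the upper limit for a miRNA without reads, was between 1.17 and 1.36 RPTM.

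A pre-miRNA is a hairpin that is cut into a duplex, and a strand from its 5' arm (5p) or its 3' arm (3p) is then loaded into an Argonaute protein. Bases 2 to 8 of the loaded strand form the seed, which pairs with the target mRNAs. miR-192 and miR-215 have the same seed and therefore form 1 family, while miR-194 has another seed and is transcribed together with them from a pair of clusters. These miRNAs are known from the epithelia of the gut, the liver and the kidney, where they are regulated by hepatocyte nuclear factors, and as miRNAs that respond to p53.

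The mature 5p sequences are shown because the family has to be separated by few bases, with the seed in capitals.
miR-192-5p: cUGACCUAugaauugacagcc
miR-215-5p: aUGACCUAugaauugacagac
miR-194-5p: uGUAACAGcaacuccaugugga

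miR-192-5p and miR-215-5p differ at 2 of 21 positions, C1A and C20A, where positions are counted from the 5' end of miR-192-5p and the base of miR-192-5p is written first. Both bases that differ are in capitals in the next lines.
miR-192-5p: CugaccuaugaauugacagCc
miR-215-5p: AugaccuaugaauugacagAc

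A read has to cover position 1 or position 20 to be assigned. The part that both miRNAs share has 18 nucleotides, ugaccuaugaauugacag, and this was the only sequence that fitted both miRNAs. It was kept apart and had between 0 and 47 reads in a profile.

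The hairpins are shown because the ends and arms are read from them, with the annotated mature miRNAs in capitals.
mml-mir-192: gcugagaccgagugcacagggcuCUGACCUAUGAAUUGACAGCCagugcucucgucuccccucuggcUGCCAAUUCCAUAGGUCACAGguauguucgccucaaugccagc
mml-mir-215: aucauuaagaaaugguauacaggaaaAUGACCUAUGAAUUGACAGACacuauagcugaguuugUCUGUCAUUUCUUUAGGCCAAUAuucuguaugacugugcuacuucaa
mml-mir-194-1: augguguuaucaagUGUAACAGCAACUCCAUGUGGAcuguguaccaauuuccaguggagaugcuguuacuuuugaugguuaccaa
mml-mir-194-2: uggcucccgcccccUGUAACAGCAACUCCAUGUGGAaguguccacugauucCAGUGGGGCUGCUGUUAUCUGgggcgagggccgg

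The mature miR-194-5p of both mir-194 hairpins is identical. The base that follows it is c in mml-mir-194-1 and a in mml-mir-194-2, so that only a longer read tells the hairpin. No mature 3p miRNA is annotated for mml-mir-194-1. In the RefSeq annotation of the macaque assembly T2T-MMU8v2.0, MIR192 and MIR194-2 were neighbours between ATG2A and EHD1, and MIR215 and MIR194-1 were neighbours within the span of IARS2, between BPNT1 and RAB3GAP2. mir-192 and mir-194-2 are therefore called 1 cluster here, and mir-215 and mir-194-1 the other.

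The labelled tissues had the marker miRNAs known for them. The summed level of 4 skeletal muscle miRNAs was 132874 and 150680 RPTM in muscle and at most 921 RPTM in the other profiles. The 2 hepatocyte miRNAs (both arms of miR-122a) had 7739 RPTM in liver and at most 4.37 RPTM elsewhere. The 3 neuronal miRNAs reached 395067 RPTM (occipital lobe) and 265452 RPTM (spinal cord), and at most 995 RPTM elsewhere. The 6 epithelial miRNAs had between 3849 and 11564 RPTM in the intestine, 4593 and 2293 RPTM in kidney, 10664 RPTM in lung, 683 RPTM in liver and at most 182 RPTM in muscle and the neural tissues. No list of markers for kidney was used.

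miR-192-5p was the most abundant member in every profile and the small intestine was its main tissue. It had 1873826 and 1445505 RPTM in small intestine, 978771 and 443626 RPTM in large intestine, 1203628 RPTM in liver, and 253994 and 277148 RPTM in kidney. The neural tissues had 28863 RPTM (occipital lobe) and 8140 RPTM (spinal cord), followed by 6511 and 7409 RPTM in muscle and 4096 RPTM in lung. Thus, both small intestine profiles lay above all others and both kidney profiles lay between the intestine and liver on one side and the remaining 5 profiles on the other. Liver lay above both large intestine profiles, whose values were 2.21-fold apart, and the single values of liver, lung and the neural tissues have no spread of their own. The highest level was 458-fold above the lowest.

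Together, miR-192-5p, miR-215-5p and miR-194-5p made up 20.6% and 16.5% of all valid reads in small intestine, 12.1% in liver, 10.02% and 4.53% in large intestine, 2.56% and 2.79% in kidney, and at most 0.293% elsewhere. In bulk tissue, fewer cells that express a miRNA and less of the miRNA per cell cannot be told apart.

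miR-194-5p, which has another seed than the miR-192 family, followed miR-192-5p at a much lower level. It had 23053 and 15874 RPTM in small intestine, 5880 RPTM in liver, 4815 and 2256 RPTM in large intestine, and 1461 and 1210 RPTM in kidney. The neural tissues had 248 RPTM (occipital lobe) and 71.5 RPTM (spinal cord), followed by 42.6 and 52.7 RPTM in muscle and 33.7 RPTM in lung. The order of the 8 tissues by their mean was the same as for miR-192-5p.

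**Figure D1:**
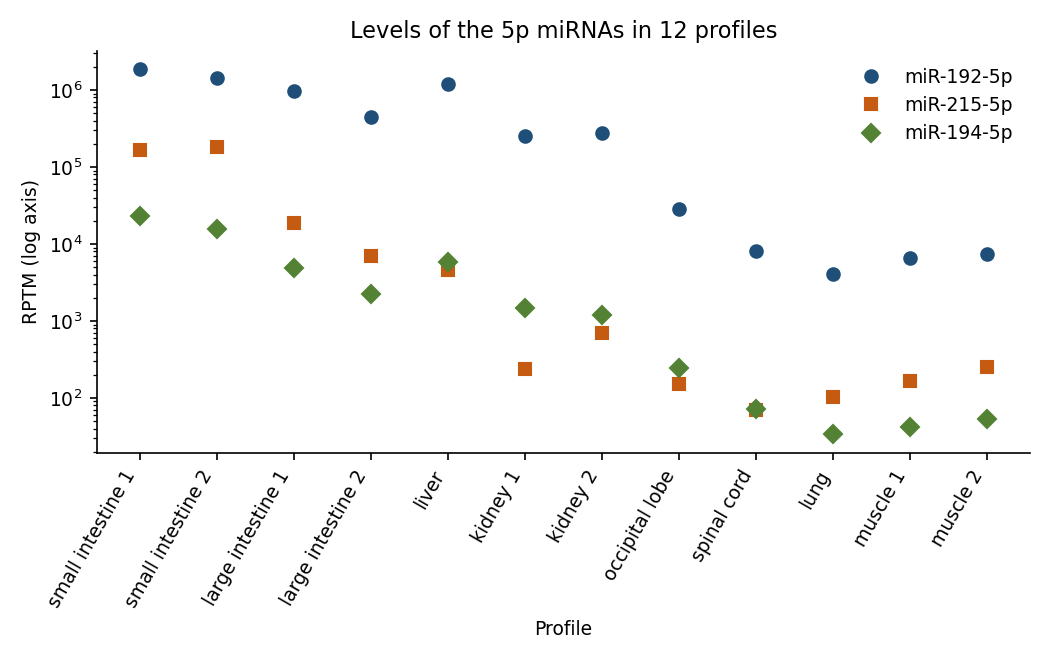
Level of miR-192-5p, miR-215-5p and miR-194-5p in RPTM on a log axis in each of the 12 profiles. Each point is 1 profile. miR-192-5p lies at 4096 RPTM or more in all profiles, and all 3 miRNAs have their highest levels in the small intestine.

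miR-215-5p, the family member with the seed of miR-192, was concentrated in the intestine. It had 166859 and 183647 RPTM in small intestine, 18778 and 6957 RPTM in large intestine, 4634 RPTM in liver, and 236 and 702 RPTM in kidney. It had 168 and 250 RPTM in muscle, 153 RPTM in occipital lobe, 101.4 RPTM in lung and 70.7 RPTM in spinal cord. Both small intestine profiles were far above the others, while kidney, in contrast to miR-192-5p, overlapped with muscle.

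These levels of miR-215-5p include reads that begin at its second base, and the share of these reads differed between the tissues. The 2 forms are shown with the base A at position 20, which assigns them to miR-215-5p, in capitals.
with the first base: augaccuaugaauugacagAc
without the first base: ugaccuaugaauugacagAc

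Reads without the first base made up 95.4% of the miR-215-5p reads in liver (95% Wilson interval 94.99% to 95.8%, 11489 reads). They made up 69.0% of 603 reads and 85.2% of 1698 reads in kidney, and 50.1% of 351 reads in occipital lobe. In contrast, they made up 1.37% and 0.890% in small intestine, 13.6% and 3.93% in large intestine, 4.73% and 4.89% in muscle, 9.48% in lung and 13.6% in spinal cord. The intervals cover counting error only. The 4 profiles with the highest shares were also those with the largest folds of miR-192-5p over miR-215-5p.

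When only reads with the first base were counted, the level of miR-215-5p fell from 4634 to 214 RPTM in liver, and to 73.1 and 104 RPTM in kidney. Small intestine remained at 164580 and 182012 RPTM and large intestine at 16219 and 6684 RPTM. Muscle had 160 and 237 RPTM, lung 91.8 RPTM, occipital lobe 76.1 RPTM and spinal cord 61.1 RPTM. With this count, all profiles outside the intestine lay between 61.1 and 237 RPTM, and both kidney profiles lay below both muscle profiles.

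**Figure D2:**
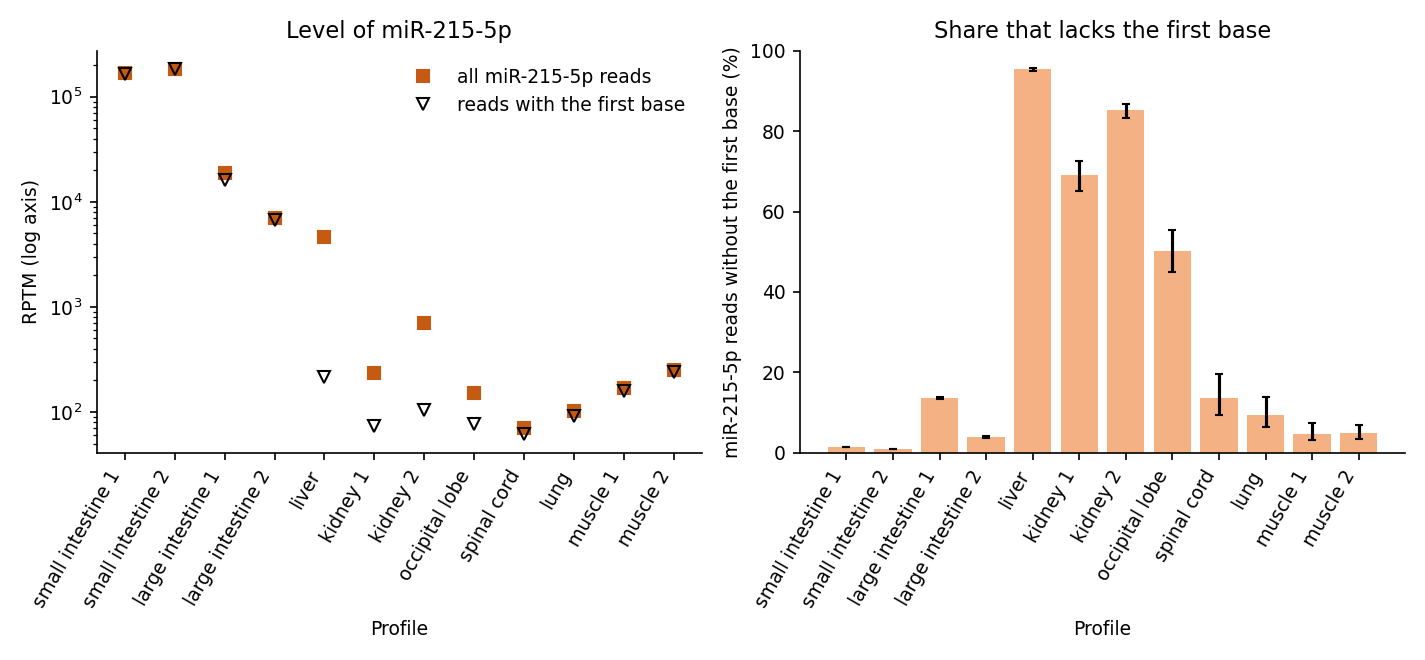
Level of miR-215-5p in RPTM (log axis, left) with all its reads and with only those that hold its first base, and the share of its reads that lack this base in percent (right, bars with 95% Wilson intervals), per profile. The 2 counts differ most in liver (4634 and 214 RPTM) and kidney and hardly in the small intestine.

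The base at position 20 was also examined in reads that begin with the C of miR-192-5p. The sequence below carries the change C20A of miR-192-5p, which is at the same time A1C of miR-215-5p, with the base A at position 20 in capitals.
miR-192-5p with C20A: cugaccuaugaauugacagAc

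It had 602064 reads over the 12 profiles. Among reads with C at position 1, A at position 20 was found in 1.70% and 4.53% of the reads in kidney, 5.29% and 1.86% in large intestine, 5.63% in liver and 2.70% and 3.16% in small intestine. It was found in 2.51% and 3.82% in muscle, 5.84% in occipital lobe, 3.85% in lung and 2.32% in spinal cord. The values of kidney 1 and kidney 2, and of both large intestine profiles, were as far apart as those of different tissues. In kidney 1 these were 11231 reads, against 603 reads counted for miR-215-5p.

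Among reads that begin at the second base, the share with A at position 20 was lower in every profile, between 0.494% and 2.53%. A read of miR-192-5p that lacks its first base and carries C20A has the same sequence as a read of miR-215-5p without its first base. Reads without the first base therefore cannot be assigned to 1 of the 2 miRNAs with certainty, and the levels of miR-215-5p in liver and kidney depend on whether they are counted.

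Other changes of C to A in miR-192-5p were rare when reads with 1 mismatch were considered. C21A had between 0.167% and 0.564%, C1A at most 0.208%, and C5A, C6A and C17A at most 0.103%. Of 63 changes seen in miR-192-5p, C20A was the only one that reached 5% with at least 10 reads in any profile, and it did so in 3 of 12 profiles. In miR-194-5p, A22G at the last base reached 5.40% in liver, and no other of 66 changes reached the limits. The genome was not searched, so that other sources of these sequences were not tested.

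In liver and kidney few reads began with the A of miR-215-5p, and many of them held C at position 20. This share was 69.8% of 1931 reads in liver, and 60.9% of 511 reads and 35.8% of 433 reads in kidney. It was 3.50% and 3.37% in large intestine, 2.05% and 1.69% in small intestine, 1.19% and 1.51% in muscle, 4.53% in lung, 9.22% in occipital lobe and 8.72% in spinal cord. Thus, in liver and kidney 1 most reads that begin with A did not hold the base of miR-215-5p at position 20.

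The fold of miR-192-5p over miR-215-5p, which is measured within each library, was smallest in the small intestine. It was 11.2 and 7.87 in small intestine, 52.1 and 63.8 in large intestine, 38.8 and 29.6 in muscle, 40.3 in lung, 115 in spinal cord, 189 in occipital lobe, 260 in liver and 1077 and 395 in kidney. Profiles of a tissue were closer to each other than pairs of profiles drawn at random (exact permutation test over 51975 arrangements, one-sided, p = 0.00281, adjusted over 18 measures 0.0257). The adjusted p was over the threshold of 0.05 without any 1 profile of small intestine, large intestine or muscle, and between 0.0649 and 0.119 then. When only reads with the first base were counted, the fold was 10.5 and 7.39 in small intestine, 5103 in liver and 3194 and 2445 in kidney, and the adjusted p of the permutation test was 0.000231.

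**Figure D3:**
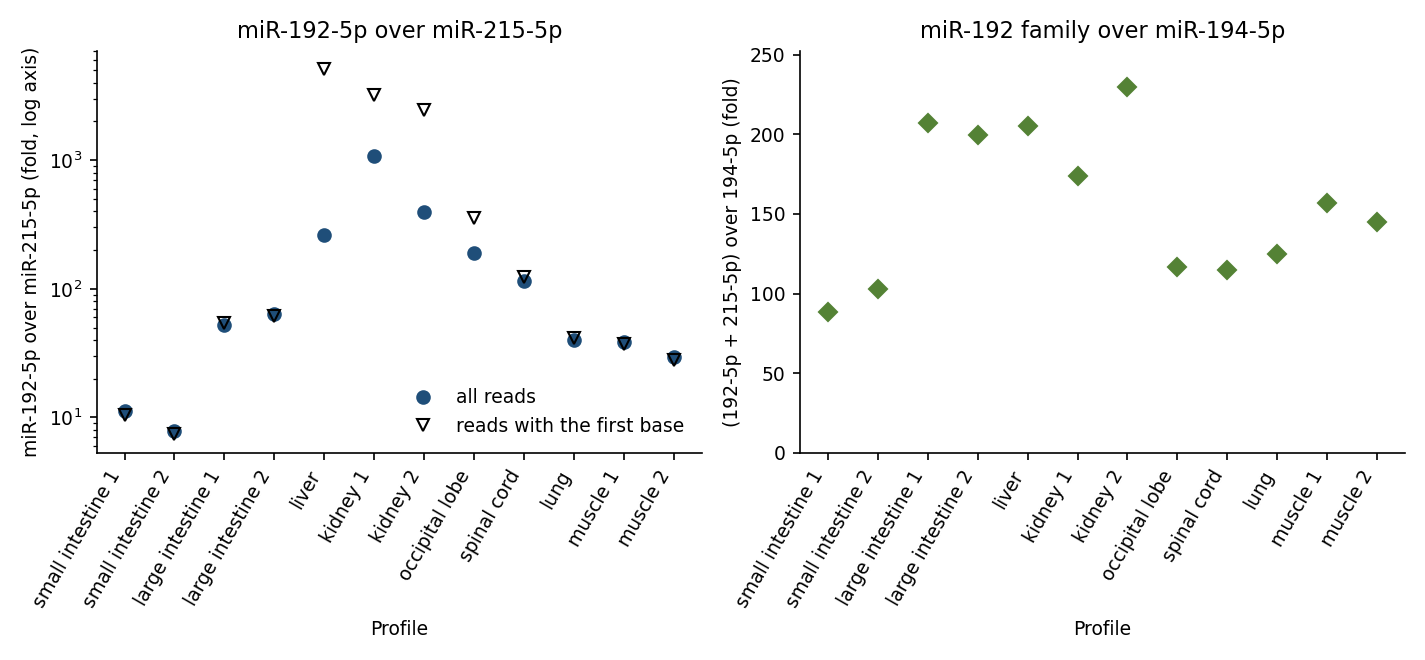
Fold of miR-192-5p over miR-215-5p (log axis, left) and fold of their sum over miR-194-5p (right) in each of the 12 profiles. On the left, filled points use all reads and open points only reads with the first base, and the small intestine is lowest on both scales. On the right, the small intestine has 88.5 and 103.

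The sum of miR-192-5p and miR-215-5p was between 88.5 and 230 times the level of miR-194-5p. The fold was 88.5 and 103 in small intestine, 115 in spinal cord, 117 in occipital lobe, 125 in lung, 157 and 145 in muscle, 207 and 200 in large intestine, 205 in liver, and 174 and 230 in kidney. The fold was thus lowest in the small intestine in this count. With identical reads only, the fold of miR-192-5p over miR-194-5p was 182 and 219 in small intestine, above the 121 of occipital lobe, the 135 of spinal cord and the 167 of lung. The ratio was more alike within tissues than in random pairs (exact permutation test, one-sided, adjusted p = 0.0438). This was not retained when only reads identical to the mature sequences were counted (adjusted p = 0.152), nor without any 1 profile of the 4 paired tissues, with adjusted p between 0.0502 and 0.143. These ratios compare reads of different sequences, and the efficiency of ligation and amplification of each was not tested.

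The small intestine was compared with the other 7 tissues with the quasi-likelihood test of edgeR. The reference, here and below, is the mean of the fitted log2 levels of the other tissues, not the mean of their levels in RPTM. Tissues with low levels, such as muscle and lung, pull this reference down. miR-192-5p was higher by 5.61 on the log2 scale (SE 0.28, adjusted p = 2.3e-07), miR-194-5p by 6.45 (SE 0.26, adjusted p = 5.8e-08) and miR-215-5p by 9.20 (SE 0.47, adjusted p = 2.4e-07). miR-194-2-3p was higher by 4.92 (SE 0.29, adjusted p = 7.2e-07). In the same comparison 18.6% of the 371 mature sequences tested were higher, with a median log2 fold change of -0.30 over all tested. With only reads that hold the first base, miR-215-5p was higher by 10.40 (SE 0.36).

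The large intestine was also above the mean log2 level of the other tissues, where 17.3% of the mature sequences were higher. The log2 difference was 4.34 for miR-192-5p (SE 0.27, adjusted p by edgeR 2.2e-06), 3.77 for miR-194-5p (SE 0.24) and 4.99 for miR-215-5p (SE 0.41). In RPTM, large intestine lay below small intestine in each of these miRNAs, and below liver in miR-192-5p and miR-194-5p. The first large intestine profile had 2.21-fold more miR-192-5p, 2.70-fold more miR-215-5p and 2.13-fold more miR-194-5p than the second. The epithelial miRNAs had 10526 RPTM in the first and 3849 RPTM in the second, and the 4 smooth muscle miRNAs (miR-143 and miR-145) had 2347119 and 3570598 RPTM. The part of such a difference in tissue composition in the results was not tested.

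Kidney was above the mean log2 level of the other tissues in 3 members, where 18.6% of the mature sequences were higher. The log2 difference was 2.68 for miR-192-5p (SE 0.27, adjusted p by edgeR 3.7e-05), 2.09 for miR-194-5p (SE 0.25, adjusted p by edgeR 1.1e-04) and 2.42 for miR-194-2-3p (SE 0.31). In RPTM, both kidney profiles lay below all profiles of intestine and liver in these members. miR-215-5p differed from the mean log2 level of the other tissues by -0.40 (SE 0.49, adjusted p by edgeR 0.63), which did not pass the test. With the first base required, miR-215-5p was lower in kidney (log2 fold change -1.98, SE 0.41, adjusted p by edgeR 0.0035), where 8.89% of the mature sequences were lower in the count with all reads. Without kidney 1 the log2 fold change with all reads was 0.28, so that its sign rested on that profile. The calls in kidney also rested on which tissues it was compared with. In the fit on the 8 numbered profiles, where kidney was set against muscle and intestine alone, the difference in miR-192-5p was 0.52 on the log2 scale with the replicate block and 0.48 without it, that in miR-194-5p was -0.059 and -0.084, and that in miR-194-2-3p was 0.82 in both, none of which passed the test (adjusted p by edgeR 0.083 to 0.92). That of miR-215-5p was -4.00 and -3.90 (adjusted p by edgeR 0.0015 and 0.0010).

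Muscle was lower in all 3 miRNAs. The log2 fold change was -3.82 for miR-192-5p (SE 0.41), -3.86 for miR-194-5p (SE 0.38) and -2.33 for miR-215-5p (SE 0.56, adjusted p by edgeR 0.0064), and -1.20 (SE 0.38, adjusted p by edgeR 0.024) for miR-215-5p with the first base. In this comparison 18.6% of the mature sequences were lower. The mean log2 level of the other tissues includes the intestine, liver and kidney, where miR-192-5p and miR-194-5p were most abundant.

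**Figure D4:**
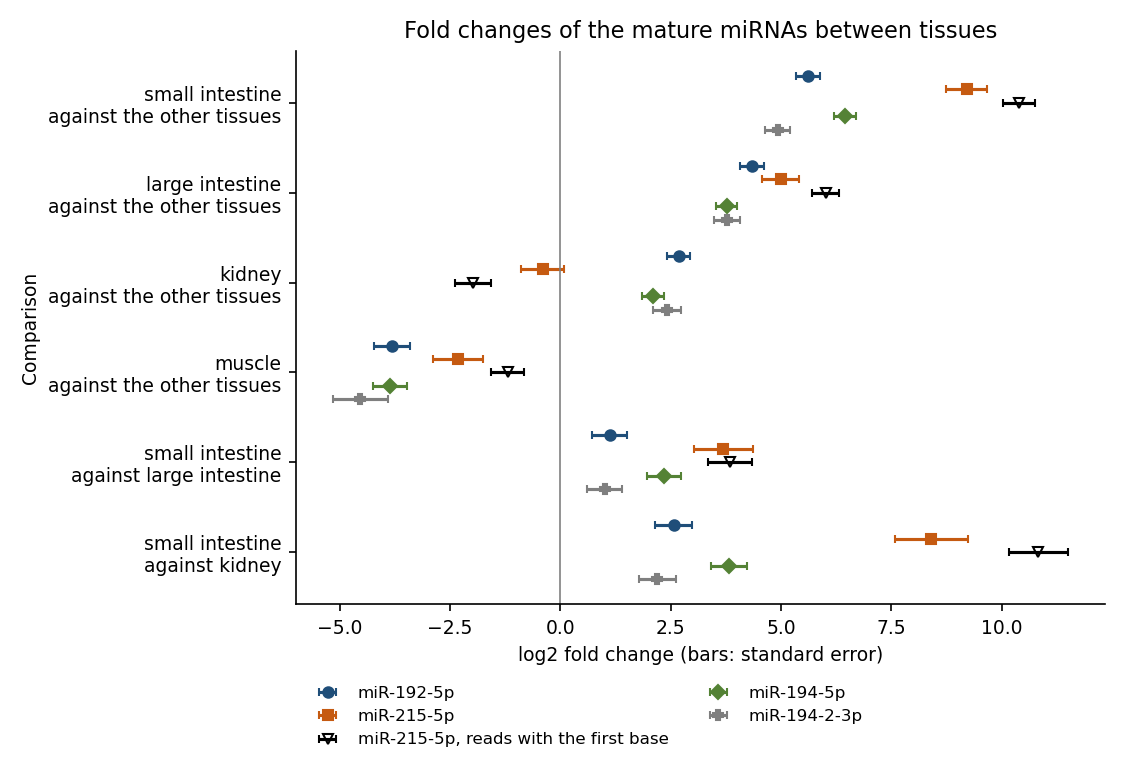
Log2 fold change of 4 mature miRNAs, and of miR-215-5p with only reads that hold its first base, in 6 comparisons of tissues. Points are fitted values of edgeR and bars are standard errors. The other tissues enter as the mean of their log2 levels. miR-215-5p differs most between small intestine and the other tissues, and is the only one at or below 0 in kidney.

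Between small intestine and large intestine, miR-215-5p and miR-194-5p differed, while miR-192-5p did not pass the test. miR-215-5p was higher in small intestine by 3.69 (SE 0.67, adjusted p by edgeR 0.013) and miR-194-5p by 2.35 (SE 0.38, adjusted p by edgeR 0.0072). miR-192-5p differed by 1.12 (SE 0.40, adjusted p by edgeR 0.33) and miR-194-2-3p by 1.005 (SE 0.40, adjusted p by edgeR 0.40). Only 2.16% of the mature sequences were higher in small intestine. The call of miR-215-5p was lost without any 1 of the 4 intestinal profiles (adjusted p by edgeR 0.067 to 0.17), and that of miR-194-5p without small intestine 1 or large intestine 2 (0.097 and 0.074). With identical reads only, miR-194-5p differed by 1.504 (adjusted p by edgeR 0.18), and with occipital lobe and spinal cord fitted as 1 group by 2.35 (adjusted p by edgeR 0.11), neither of which passed. When a mismatch or tail was allowed, miR-215-5p differed by 2.35 (adjusted p by edgeR 0.21), which did not pass either. Whether miR-215-5p and miR-192-5p differ by different amounts was addressed only by the ratio above, in which the 2 intestines did not overlap.

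Between small intestine and kidney, where 11.6% of the mature sequences were higher in small intestine, miR-192-5p was higher by 2.57 (SE 0.42, adjusted p by edgeR 0.0014). miR-194-5p was higher by 3.81 (SE 0.41) and miR-215-5p by 8.40 (SE 0.83), and by 10.83 (SE 0.67) when the first base was required.

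The other arms were much less abundant than the 5p arms. The sequences below are the annotated 3p miRNAs.
miR-192-3p: ugccaauuccauaggucacag
miR-215-3p: ucugucauuucuuuaggccaaua
miR-194-2-3p: caguggggcugcuguuaucug

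miR-192-3p had 66 reads over the 12 profiles, against 15647431 reads of miR-192-5p. They came from small intestine (23 and 12 reads), liver (23 reads) and large intestine (7 and 1 reads), and the other 7 profiles had none. The highest level was 9.41 RPTM, and it did not pass the filter for the edgeR comparisons. In these 7 profiles, which include all those of kidney and muscle, the log2 ratio of miR-192-5p to miR-192-3p holds only the miR-192-5p count and the pseudocount. The closeness of the kidney profiles, and of the muscle profiles, is therefore not a likeness of the ratio between the arms. The ratio was more alike within tissues than in random pairs (exact permutation test, one-sided, adjusted p = 0.0257). This result rests in part on the miR-192-5p count alone, and elsewhere on few 3p reads. It was not retained when every exactly matching read of the arm was counted (adjusted p = 0.168), nor without any 1 profile of kidney, muscle or small intestine, with adjusted p between 0.0620 and 0.119.

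miR-215-3p was found in small intestine with 270 and 115 RPTM and in large intestine with 14.5 and 10.6 RPTM. Elsewhere it had at most 1 read in a profile, also in liver and kidney, where most 5p reads lacked the first base. Kidney had 603 and 1698 reads of miR-215-5p, too few for many 3p reads at the folds of the intestine given below. With 3 reads as the upper limit in the 6 profiles without reads, the lower small intestine profile was at least 88.1-fold higher and the lower large intestine profile at least 8.13-fold higher. It was higher in small intestine than in large intestine by 3.79 on the log2 scale (SE 0.56, adjusted p by edgeR 0.0080), but not without small intestine 1 or either large intestine profile (adjusted p by edgeR 0.091 to 0.16). miR-215-3p passed the filter for the edgeR comparisons only through its levels in small intestine. The edgeR test therefore gives no independent support for the difference. There were 617 and 1595 reads of miR-215-5p per read of miR-215-3p in small intestine, and 1298 and 655 in large intestine.

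miR-194-2-3p, the 3p arm of mir-194-2, had 244 and 191 RPTM in small intestine, 153 RPTM in liver, 103 and 96.5 RPTM in large intestine, 41.8 and 48.4 RPTM in kidney, 15.2 RPTM in occipital lobe, 5.86 RPTM in spinal cord and at most 1.25 RPTM in muscle and lung. The level of miR-194-2-3p thus varied less than that of miR-194-5p between the digestive tissues. There were 81.5 and 77.8 reads of miR-194-5p per read of the 3p arms in small intestine, and 34.6 and 24.8 in kidney. This fold did not pass the test for likeness within tissues (exact permutation test, one-sided, adjusted p = 0.113).

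The most frequent reads of the 3p arms began 1 base before the annotated start in both mir-192 and mir-194-2.
mir-192, 44 of 119 reads: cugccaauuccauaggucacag
mir-215, 679 of 1126 reads: ucugucauuucuuuaggccaau
mir-194-2, 1225 of 2206 reads: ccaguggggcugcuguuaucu
mir-194-1, 53 of 118 reads: ccaguggagaugcuguuacuuu

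The 3p arm of mir-194-1, for which no mature miRNA is annotated, had 118 reads in all. They came from small intestine (82 and 26 reads) and large intestine (3 and 7 reads), and no read was found in the other 8 profiles. mir-194-1 thus made up 11.9% and 5.37% of the mir-194 3p reads in small intestine, 1.27% and 2.98% in large intestine, and 0 of 397 in liver and 0 of 108 and 118 in kidney. A count of 0 of 397 allows a share of up to 0.958% (95% Wilson interval). The log2 ratio of the 3p arms of both hairpins was more alike within tissues than in random pairs over the 8 profiles with enough reads (exact permutation test over 420 arrangements, one-sided, adjusted p = 0.0257). In kidney, liver and occipital lobe, where mir-194-1 had no 3p reads, this ratio holds only the mir-194-2 count and the pseudocount. The closeness of the kidney profiles is therefore not a likeness of the ratio between the hairpins. The call was lost without liver and without any 1 profile of the paired tissues, with adjusted p between 0.0643 and 0.133. The muscle profiles had too few reads for this ratio, so that leaving out 1 of them changed only the adjustment over the other measures.

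The longer 5p reads of miR-194 gave another view of the same hairpins. The forms that tell the hairpin are shown with the bases beyond the annotated end in capitals.
mir-194-1, 41017 reads: uguaacagcaacuccauguggaC
mir-194-1, 15249 reads: uguaacagcaacuccauguggaCU
mir-194-2, 6131 reads: uguaacagcaacuccauguggaA

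Among 5p reads that fitted only 1 hairpin, mir-194-1 made up 93.0% and 95.7% in small intestine (30463 and 21971 such reads of mir-194-1), and 77.4% and 77.2% in large intestine. It made up 10.2% and 19.5% in kidney and 18.4% in liver. It made up 36.6% in occipital lobe, 36.4% in spinal cord, 86.5% and 75.0% in muscle and 87.0% in lung, where only 23 to 41 reads told the hairpin. The intestine, muscle and lung thus had the higher shares, and kidney, liver, occipital lobe and spinal cord the lower ones. This share was chosen after its values were seen and was not tested.

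These shares have limits. Reads that tell the hairpin were 58.1% and 61.0% of the miR-194-5p reads in small intestine but 9.15% and 10.1% in kidney and 11.2% in liver, and the remaining reads fit both hairpins. The base a that follows miR-194-5p in mir-194-2 cannot be told from an A added to the end of a read. Also, the 5p reads and the 3p reads placed mir-194-1 at very different shares in the small intestine, 93.0% and 11.9% in the first profile. The level of mir-194-1 can therefore not be given from either arm alone.

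**Figure D5:**
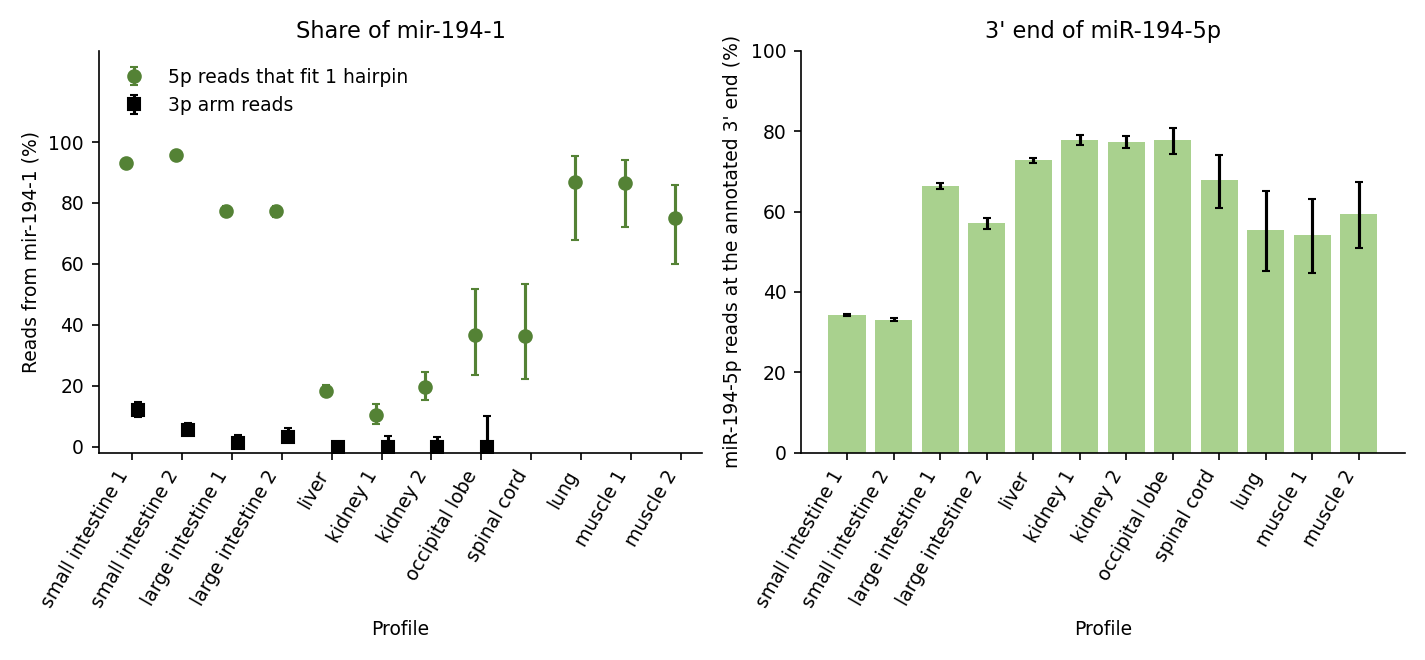
Share of mir-194-1 in percent (left) among 5p reads that fit only 1 hairpin and among 3p arm reads (profiles with at least 20 such reads), and share of miR-194-5p reads at the annotated 3' end in percent (right), per profile with 95% Wilson intervals. The intestine, muscle and lung have 5p shares of mir-194-1 of at least 75.0%, and the small intestine has the lowest share of reads at the annotated 3' end.

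The 3' end of miR-194-5p lay beyond the annotated end more often in the small intestine than in the other profiles. Reads that end at the annotated 3' end made up 34.2% and 33.1% in small intestine, 66.4% and 57.0% in large intestine, 77.8% and 77.3% in kidney, 72.7% in liver, 77.8% in occipital lobe, 67.9% in spinal cord, 54.1% and 59.4% in muscle and 55.4% in lung. The share was more alike within tissues than in random pairs (exact permutation test, one-sided, adjusted p = 0.0257). It did not pass without any 1 profile of the paired tissues (adjusted p between 0.0571 and 0.133). In small intestine 49.4% and 53.2% of the reads continued into the hairpin beyond the annotated end, against at most 33.3% elsewhere.

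A form of miR-194-5p with 18 nucleotides, uguaacagcaacuccaug, had 1965 reads. It made up between 0.519% and 2.29% of the reads of miR-194-5p in 11 profiles and 7.23% in lung, where these were 6 reads. The bases that follow it in the hairpin, ugga, are also the first bases of the 3' adapter that the authors removed, and the part of the adapter in this form was not tested. It was not counted for the levels above.

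miR-192-5p had 2 starts in all tissues, and the start went with the end. The most frequent reads are shown with the bases beyond the annotated end in capitals.
86.8% of the reads of the arm: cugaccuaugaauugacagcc
3.65%: ugaccuaugaauugacagcc
3.01%: ugaccuaugaauugacagccAGU
2.27%: ugaccuaugaauugacagccA
1.92%: ugaccuaugaauugacagccAG

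Between 84.8% (liver) and 90.9% (occipital lobe) of the miR-192-5p reads began at the annotated base, and between 9.10% and 15.2% began 1 base later, which changes the seed. Reads with C20A are included in these shares as reads with a tail. Of the reads without a tail that began at the annotated base, between 96.7% and 98.1% also ended at the annotated end. Of those that began 1 base later, only between 28.3% and 45.9% did, and between 14.4% and 32.1% ended 3 bases later. The latter form lies outside the window of 2 bases used for the levels. Neither the share of the annotated start (exact permutation test, one-sided, adjusted p = 0.0941) nor that of the annotated 3' end (adjusted p = 0.0827) passed the test for likeness within tissues.

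A frequent form of miR-215-5p was extended by the next base of its hairpin, an a.
miR-215-5p with 1 more base, 369775 reads: augaccuaugaauugacagacA

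This end made up 41.3% and 35.2% of the miR-215-5p reads in small intestine, 30.001% and 44.8% in large intestine, 34.2% and 42.2% in muscle, 32.0% in lung, 26.9% in spinal cord and 21.3% in occipital lobe. It made up 7.14% and 5.76% in kidney and 2.07% in liver. The reads counted for ends include reads with A at position 1 and C at position 20, as tailed reads. Such reads numbered 311 and 155 in kidney and 1348 in liver, which lowers these shares. Kidney, liver and occipital lobe, where this form was least frequent among all reads, were also the profiles with the highest shares of reads without the first base. Among the untailed reads that began at the annotated first base, the extended end made up 34.8% and 40.1% in kidney, 40.0% in liver and 46.9% in occipital lobe. The shares in small intestine were 46.0% and 37.6% on this count, so that the tissues lay in the same range. An A that was added after cleavage cannot be told from this base of the hairpin. A tails that do not match the hairpin made up between 0 and 2.97% of the reads of miR-215-5p and were more alike within tissues than in random pairs (exact permutation test, one-sided, adjusted p = 0.0257), but not without any 1 profile of small intestine, large intestine or muscle (adjusted p between 0.0695 and 0.119). Non-templated U tails made up between 2.15% and 5.75% of the reads of miR-192-5p, and these shares did not pass the same test in any of the 3 miRNAs.

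The other miRNAs known from epithelia and digestive organs were examined for comparison. Of 17 mature sequences of 10 pre-miRNAs, 14 could be tested. In small intestine 12 were higher than the mean log2 level of the other tissues and 0 were lower. Of all mature sequences tested, 18.6% were higher there and 17.8% lower. The median log2 fold change of the 14 was 4.80 against -0.30 over all mature sequences tested. In large intestine 8 were higher and 1 was lower, where 17.3% of all were higher and 11.6% lower, with a median of 4.39 against -0.25. In kidney 9 were higher and 1 was lower, where 18.6% of all were higher and 8.89% lower, with a median of 1.76 against -0.06. In muscle 0 were higher and 4 were lower, where 29.6% of all were higher and 18.6% lower, with a median of -2.48 against 0.05. In small intestine against large intestine 2 were higher and 0 were lower, where 2.16% of all were higher and 0.270% lower, with a median of 0.35 against -0.03.

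The latter were miR-31-5p and miR-802-5p. miR-31-5p had 3781 and 2140 RPTM in small intestine and 2.26 and 11.9 RPTM in large intestine, and was higher by 8.53 on the log2 scale (adjusted p by edgeR 1.5e-04). It had 531 and 284 RPTM in kidney and 1422 RPTM in occipital lobe. Kidney was also above the mean log2 level of the other tissues (log2 fold change 1.76, adjusted p by edgeR 0.0045). miR-802-5p had 376 and 103 RPTM in both small intestine profiles and no more than 1.25 RPTM in the others. In miR-31-5p, miR-802-5p and miR-215-5p, the profiles of small intestine thus lay above those of large intestine. The epithelial miR-200 family members did not pass the test between the 2 parts of the intestine. miR-802-5p passed the filter only through its levels in small intestine. Its calls in small intestine, also in the counts above, are therefore no independent support. miR-429-3p had 2479 and 1495 RPTM in small intestine and 3185 and 1150 RPTM in large intestine.

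miR-375-3p, which is known from endocrine cells and the gut, had 108890 and 107201 RPTM in small intestine, 95210 and 42511 RPTM in large intestine, 28507 RPTM in liver and 807 and 1076 RPTM in kidney. In kidney miR-375-3p was below the mean log2 level of the other tissues (log2 fold change -2.73, adjusted p by edgeR 8.2e-04), whereas miR-192-5p was above it.

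The pattern of each member over the 12 profiles was compared with those of 366 other mature sequences by Pearson's correlation of log2(RPTM + 1), as a description. miR-192-5p was most like miR-200a-5p (0.79), miR-200a-3p (0.69) and miR-148a-5p (0.69), and miR-194-5p was most like miR-200a-5p (0.77), miR-200a-3p (0.67) and miR-429-3p (0.66). miR-215-5p was most like miR-147b-3p (0.80), miR-18a-5p (0.77) and miR-375-3p (0.77). The order depended on the measure. By Spearman's correlation, the sequences named for miR-215-5p ranked 15, 6 and 9, and those named for miR-192-5p ranked 2, 7 and 1. By Pearson's correlation the 5p members were more like each other. It was 0.99 between miR-192-5p and miR-194-5p, 0.86 between miR-192-5p and miR-215-5p, and 0.90 between miR-194-5p and miR-215-5p. For miR-194-2-3p it was 0.98 with miR-192-5p, 0.98 with miR-194-5p and 0.82 with miR-215-5p. For miR-215-3p it was 0.91 with miR-215-5p, but 0.66 with miR-192-5p and 0.74 with miR-194-5p, below those of miR-200a-5p. The 12 points share tissues, so that they are not independent. miR-147b-3p had 63.8 and 43.0 RPTM in small intestine, 59.2 and 26.4 RPTM in large intestine and at most 5.68 RPTM elsewhere. miR-148a-5p was highest in liver with 4688 RPTM, where miR-200a-5p had 12.1 RPTM.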

How the data were processed

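Small RNAs of 12 tissue profiles were sequenced. The authors kept reads with high scores at their first bases, removed the 3' adapter and deposited the counts of identical sequences of 18 to 44 nucleotides, without normalization.

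Sequences were matched here to 832 pre-miRNAs from the study's list. Reads were assigned when they matched a hairpin exactly and both ends lay within 2 nucleotides of a mature miRNA, and reads that fit miR-192-5p and miR-215-5p were kept apart. RPTM values were computed from the valid reads. End shares use reads with tails of up to 3 nucleotides.

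Tissues were compared with the quasi-likelihood test of edgeR 4.0.16 in R 4.3.3 with TMM factors (0.623 to 2.49) and 8 groups, on 371 mature sequences whose RPTM had a mean of at least 5 and an SD of at least 1, at an adjusted p (Benjamini-Hochberg) under 0.05. Only the 4 tissues with 2 profiles contribute to the spread. In comparisons against the other tissues, the reference was the mean of their fitted log2 levels. Within-library measures were compared with an exact permutation test of the squared differences within tissues, with a pseudocount of 0.5 reads in log2 ratios and a minimum of 20 reads. The p-values measure the spread between profiles. On simulated counts for kidney against the other tissues with 371 mature sequences, 81.1% of 37 changed 4-fold and 97.3% of 37 changed 8-fold were called, and 1 unchanged sequence was called. Apart from the changed sequences in kidney, all simulated tissues had the same means. The real tissues differ more widely, so that these rates need not hold for them. Counting used Python 3.11.15. The alternatives were DESeq2 1.42.0, total valid reads, no filter, other assignments, 7 groups, a replicate block, other minima and pseudocounts, and leaving out each profile. Counting only reads with the first base, and the fit without a block on 8 profiles, were added after the data were seen.

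The miRNAs named are all mature members, the 3 sequences most like each 5p member, and a list of epithelial and digestive miRNAs. The members and lists were chosen with earlier results of these data known.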

Additional observations from a re-analysis of the deposited data

How the results depend on the processing

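The log2 fold changes of miR-192-5p, miR-215-5p and miR-194-5p in small intestine, large intestine and muscle against the other tissues, and in small intestine against kidney, kept their direction and stayed past the threshold under all alternatives and without each profile. The least stable value was that of miR-215-5p in kidney, where the log2 fold change was -1.27 with total valid reads, -1.96 with reads identical to the mature miRNA and -1.98 with reads that hold the first base, all past the threshold. It was 1.63, and past the threshold in the other direction, when 1 mismatch or a tail was allowed, since reads with C20A of miR-192-5p are then also counted for miR-215-5p. In small intestine against large intestine, miR-194-5p was not called with identical reads (1.504) or with 7 groups (2.35), nor miR-215-5p with a mismatch or tail allowed (2.35). For the ratio of miR-194-5p to the sum of miR-192-5p and miR-215-5p, the range of tissue values was 1.103 on the log2 scale with identical reads and was not called. The cause was not tested for these changes, except where named.

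Without 1 profile each, the log2 fold change of miR-215-5p ranged from -1.72 to 0.28 in kidney and from 3.16 to 4.52 in small intestine against large intestine, where miR-194-5p ranged from 1.92 to 2.94. The range of tissue values was 5.39 to 6.84 for the log2 ratio of miR-192-5p to miR-215-5p and 1.002 to 1.27 for that of miR-194-5p to their sum.

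Same-numbered profiles were not paired by the labels, and the correlation of their deviations from the tissue means was between -0.14 and 0.15 over 6 pairs of tissues, so that the numbers were not used. With a replicate block on the 8 numbered profiles of 4 tissues, kidney had log2 fold changes of 0.52 for miR-192-5p and -0.059 for miR-194-5p, which did not pass, and -4.00 for miR-215-5p, which did. Without the block on the same 8 profiles they were 0.48, -0.084 and -3.90, and here the other tissues were only muscle and the intestine. Between these fits, the block changed no call of a member.

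With total valid reads in place of TMM factors the median log2 fold change of all mature sequences moved from -0.30 to -1.02 in small intestine, from -0.25 to -1.08 in large intestine, from -0.06 to -0.84 in kidney and from 0.05 to -0.25 in muscle against the other tissues, and the share of higher among the calls from 51.1% to 22.2%, 59.8% to 18.4%, 67.6% to 31.2% and 61.5% to 48.3%. With DESeq2 the medians were -0.10 in small intestine, -0.13 in large intestine and, for small intestine against kidney, 0.029 in place of -0.11, and the share was 76.9% in place of 88.9% for small intestine against large intestine and 55.2% in place of 44.8% for small intestine against kidney. The number of mature sequences called against the other tissues was 135 in small intestine, 102 in kidney, 107 in large intestine and 179 in muscle. With total valid reads it was 157 in kidney and 190 in large intestine, and with identical reads 80 in small intestine, 67 in kidney and 118 in muscle. With 7 groups it was 82 in small intestine and 54 in large intestine, and with the block 79 and 59, and 89 and 71 without the block on the same profiles. In small intestine against large intestine it was 9, and 18 with no filter and 5 with identical reads. In small intestine against kidney it was 96, and 57 with identical reads. Without 1 profile each, the number ranged from 58 to 136 in small intestine, from 67 to 125 in kidney and from 57 to 122 in large intestine, from 2 to 10 in small intestine against large intestine and from 54 to 113 against kidney. The lowest of these came without small intestine 1, kidney 2, large intestine 1, large intestine 1 and small intestine 2. Depth limits the shares in muscle, lung and the neural tissues, where miR-194-5p had between 77 and 571 reads and miR-215-5p between 169 and 573 reads.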
